A study of Mus musculus with 24 samples.

Results

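Gata4, Gata6, Sox17, Sox7, Foxa2, Hnf4a and Pdgfra are 7 genes used by primitive endoderm, the cell layer of the early embryo that forms next to the pluripotent epiblast. They were chosen by name from the 24594 genes counted by RNA-seq in mouse embryonic stem cells (mESCs), with their changes in these same libraries already known, so their changes are given here as descriptions and without a p-value. All 7 passed the filter on low counts that left 15682 genes for testing.

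The libraries come from mESCs of the 129S6/SvEvTac cell line with no treatment, grown with serum and LIF. There are 11 libraries of wild-type (WT) cells in batches A to E, 2 each of Rsf1Δ and WstfΔ cells in batch A, of Tip5Δ cells in batch B, of BptfΔ cells in batch C and of Acf1Δ cells in batch E, and 3 labelled Cecr2Δ in batch D. Batch D has 3 WT libraries and every other batch has 2. Each deletion removes 1 accessory subunit of the ISWI chromatin remodelers by CRISPR-Cas9, and each line is 1 clone, so that a deletion and the history of its clone cannot be told apart. WSTF is the product of Baz1b, TIP5 that of Baz2a and ACF1 that of Baz1a. Rsf1Δ and WstfΔ were compared with the same 2 WT libraries.

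GATA6 and GATA4 are zinc-finger transcription factors that start and maintain the primitive endoderm program, and SOX17 and SOX7 are HMG-box factors of the same cells. FOXA2 and HNF4A are factors of visceral endoderm and later of gut and liver, and PDGFRA is a receptor tyrosine kinase that marks primitive endoderm precursors. mESCs represent the epiblast, and cultures in serum are known to hold some cells that switch on endoderm genes. In bulk RNA, fewer such cells and less RNA per cell cannot be told apart.

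The libraries held 13.4 to 36.7 M (mega) counts each. At this depth 3 counts correspond to between 0.0837 and 0.22 normalized CPM, a count scaled to a common library size, and values near that level cover few reads. The mRNA of the targeted gene was lower in Rsf1Δ, WstfΔ, BptfΔ and Acf1Δ, at 18.9% to 30.4% of WT. Baz2a mRNA was at 83.6% of WT in Tip5Δ, and Cecr2 mRNA was at 129% of WT in the libraries labelled Cecr2Δ, so RNA does not check those labels. The paper reports that western blots found none of the targeted protein in any deletion line, and that clones were also checked by DNA sequencing. The labels give polyA RNA for all libraries, but 55 replication-dependent histone genes, whose mRNAs lack a poly(A) tail, held 0.234% to 0.317% of counts in the 4 libraries of batch C and 0.00129% to 0.00339% in the other 20. The comparison of BptfΔ is within batch C. Whether this difference affects the level of the 7 genes in batch C relative to other batches was not tested. Pou5f1, Sox2 and Nanog, the core factors of mESCs, were abundant in every group, with group means of 1045 to 1720 normalized CPM for Pou5f1.

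In WT cells all 7 genes were detected in every library. Per kilobase of gene width, Gata4 was the most abundant at 16.3 ± 8.76 normalized CPM per kb (SD, n = 11), followed by Sox7 at 6.67 ± 2.64. Sox17, Gata6, Pdgfra and Foxa2 lay between 2.52 and 3.24 on this scale, closer to each other than their SDs. Hnf4a was the least abundant at 0.617 ± 0.216.

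The level in WT cells depended on the batch. Gata4 mRNA was at 97.1 and 100 normalized CPM in batch A, 110 and 106 in batch B, 38.3 and 37.2 in batch C, 23.0, 31.7 and 27.9 in batch D, and 64.7 and 63.8 in batch E. These batches did not overlap. For the 7 genes, the highest WT batch mean exceeded the lowest by 2.46-fold (Hnf4a) to 3.92-fold (Gata4). Batch D was lowest for 6 genes and batch C for Sox7, while batch B was highest for 6 genes and batch A for Foxa2. Each deletion line is therefore read against the WT cells of its own batch.

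**Figure D1:**
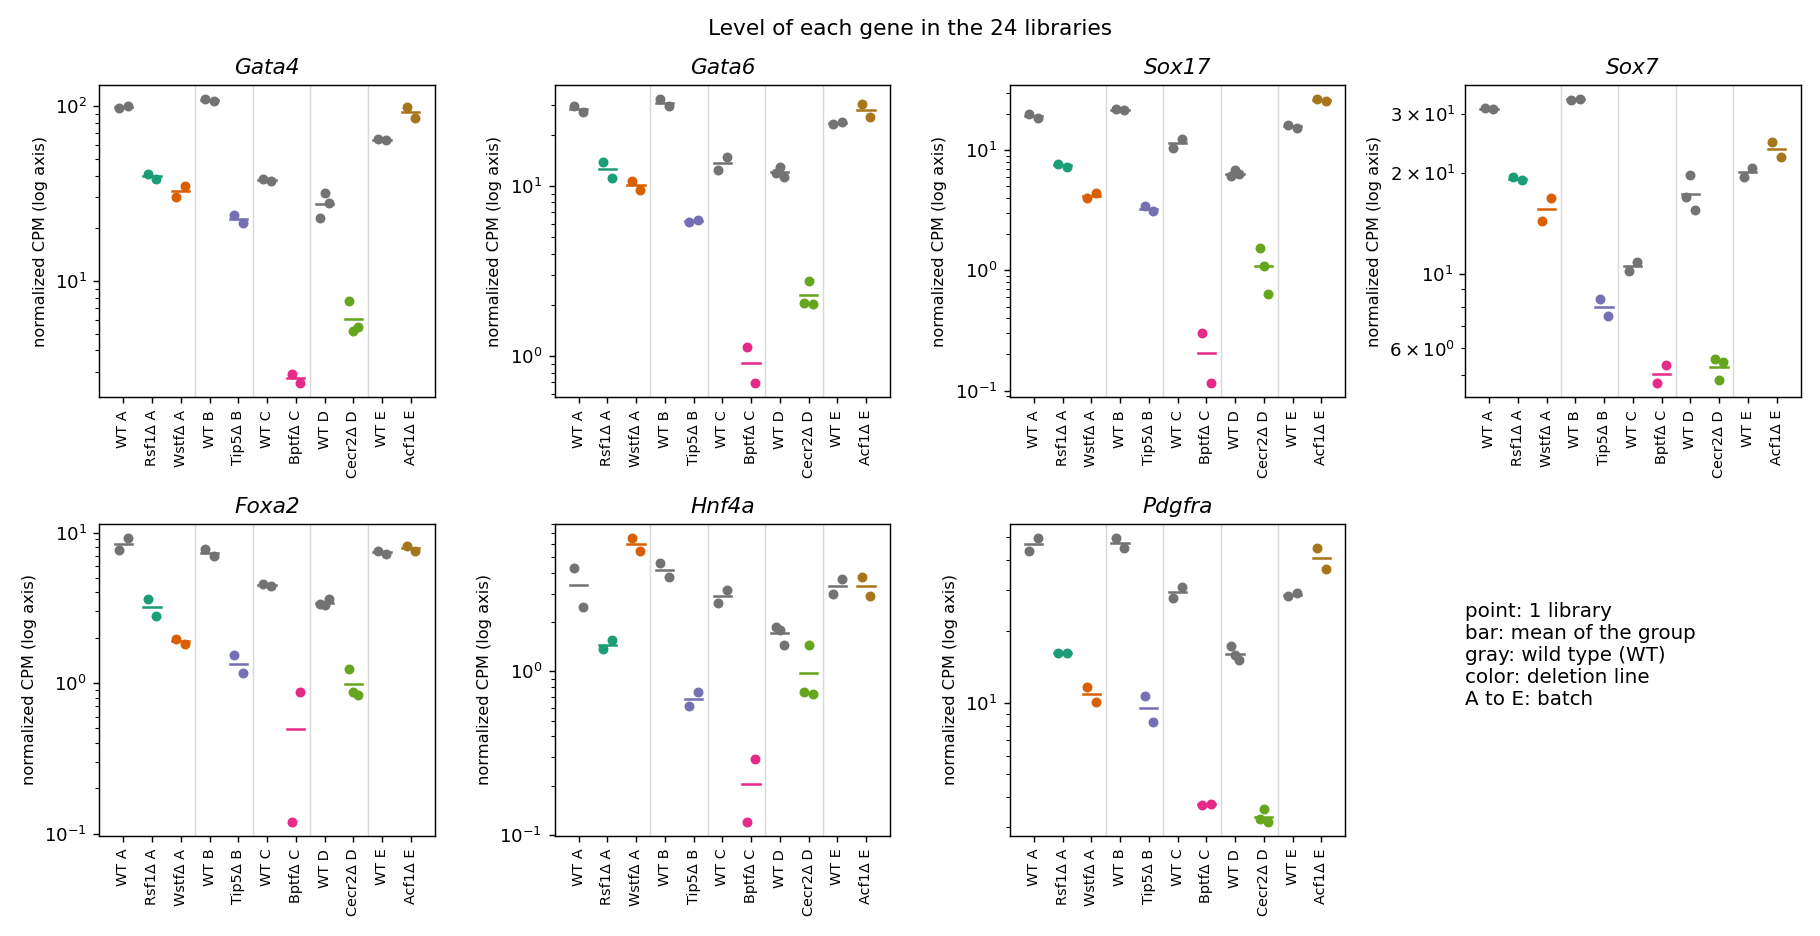
Level of each of the 7 genes in the 24 libraries, in normalized CPM on log axes, with 1 point per library, a bar at the group mean, WT in gray and deletion lines in color; thin lines divide the batches. For Gata4 the BptfΔ libraries sit at 2.93 and 2.60 and the Acf1Δ libraries at 98.9 and 85.6.

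Genes were called decreased or increased (DEGs) where they changed more than 2-fold with an adjusted p below 0.01, in 1 edgeR fit with terms for batch and genotype. By these thresholds 6 of the 7 genes were called decreased in Rsf1Δ, 5 in WstfΔ, 7 in Tip5Δ, 7 in BptfΔ, 6 in Cecr2Δ as labelled and 0 in Acf1Δ. Of all genes tested, 5.26% were called decreased in Rsf1Δ, 6.57% in WstfΔ, 2.63% in Tip5Δ, 8.59% in BptfΔ, 2.33% in Cecr2Δ as labelled and 3.32% in Acf1Δ. None of the 7 was called increased in any line, where the share of all genes was 0.65%, 3.87%, 0.0829%, 5.25%, 0.784% and 1.14% in the same order. Since the genes were chosen with these contrasts known, the counts are set beside the shares and nothing is read from them.

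The median log2 fold change of the 7 genes was -1.32 in Rsf1Δ, -1.60 in WstfΔ, -2.32 in Tip5Δ, -3.77 in BptfΔ, -2.19 in Cecr2Δ as labelled and 0.25 in Acf1Δ, while the median of all genes lay between -0.03 and 0.01. Summed over the 7 genes, the mean level went from 236 normalized CPM in WT cells of batch A to 99.8 in Rsf1Δ and 81.3 in WstfΔ. It went from 252 to 51.6 in Tip5Δ, from 110 to 13.4 in BptfΔ and from 84.6 to 20.0 in the libraries labelled Cecr2Δ. In Acf1Δ it was higher than in WT cells of its batch, at 222 against 163. Acf1Δ thus stands apart from the other 5 lines in direction, though whether the lines differ from each other was not tested.

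**Figure D2:**
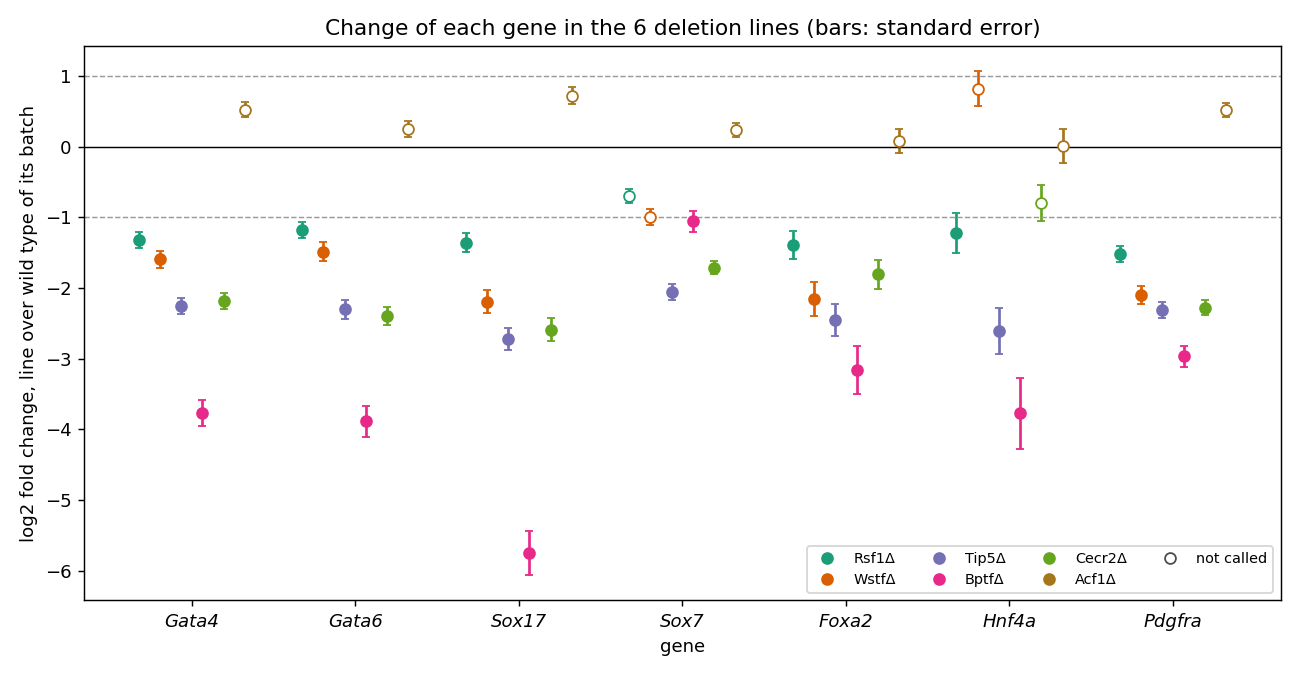
Log2 fold change of each gene in each deletion line over the WT libraries of its batch, with standard errors as bars, filled points for genes past both thresholds, open points for those not called, and dashed lines at a 2-fold change. All 7 Acf1Δ points are open and lie at or above 0, and the lowest point is Sox17 in BptfΔ at -5.75.

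Gata4 and Gata6 were both called decreased in 5 lines and not in Acf1Δ. Gata4 (gene ID 14463, chromosome 14, 63198914 to 63271712, mm10) was at 40.9 and 38.3 normalized CPM in Rsf1Δ, 30.1 and 35.1 in WstfΔ, 23.9 and 21.3 in Tip5Δ, 2.93 and 2.60 in BptfΔ, and 7.64, 5.17 and 5.47 in the libraries labelled Cecr2Δ. Each of these libraries was below every WT library of its batch. The log2 fold change of Gata4 ranged from -1.32 ± 0.11 (SE) in Rsf1Δ to -3.77 ± 0.18 in BptfΔ. In Acf1Δ, Gata4 was at 98.9 and 85.6 normalized CPM, above both WT libraries of batch E, with a log2 fold change of 0.52 ± 0.11. Among the 11 groups ordered by mean Gata4 level, BptfΔ was lowest, then Cecr2Δ, Tip5Δ and WT of batch D. The ranges of 3 of the 10 neighbouring pairs in this order overlapped: Tip5Δ and WT of batch D, WT of batch D and WstfΔ, and Acf1Δ and WT of batch A.

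Gata6 (gene ID 14465, chromosome 18, 11052510 to 11085636) was lower than in WT cells by log2 values of -1.18 ± 0.12 in Rsf1Δ, -1.49 ± 0.13 in WstfΔ, -2.31 ± 0.13 in Tip5Δ, -3.89 ± 0.22 in BptfΔ and -2.39 ± 0.13 in the libraries labelled Cecr2Δ. In BptfΔ it fell to 1.14 and 0.693 normalized CPM, from 12.5 and 14.7 in WT cells of batch C. In Acf1Δ it was at 30.5 and 25.5 normalized CPM against 23.2 and 23.9, a log2 fold change of 0.25 ± 0.11. Gata6os, an RNA gene (11042037 to 11052567 in RefSeq) that overlaps only the first bases of Gata6, was called decreased in the same 5 lines in which Gata6 was. Its log2 fold change was -1.42 in Rsf1Δ (adjusted p = 0.00309), -1.34 in WstfΔ (adjusted p = 0.00802) and -3.05 in Tip5Δ (adjusted p = 3.59e-06), and 0.38 in Acf1Δ (adjusted p = 0.314). In BptfΔ it had 1 and 0 counts, and in the libraries labelled Cecr2Δ 1, 2 and 2. Whether counting used strand is not stated, so reads from the short stretch that both genes share may not be separated.

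Sox17 had the largest decrease of the 7 genes in WstfΔ, Tip5Δ, BptfΔ and the libraries labelled Cecr2Δ. Sox17 (gene ID 20671, chromosome 1, 4490928 to 4497426) was at 10.3 and 12.4 normalized CPM in WT cells of batch C and at 0.299 and 0.116 in BptfΔ, which are 5 and 2 counts. The log2 fold change was -5.75 ± 0.31 in BptfΔ, -6.56 without BptfΔ replicate 1 and -5.22 without BptfΔ replicate 2. In Tip5Δ the level was 3.41 and 3.12 normalized CPM against 21.8 and 21.4, a log2 fold change of -2.72 ± 0.15. In the libraries labelled Cecr2Δ it was 1.53, 1.08 and 0.642 against 6.04, 6.83 and 6.28. In Acf1Δ, Sox17 was at 26.5 and 25.4 normalized CPM, above all 11 WT libraries, of which the highest was at 21.8. Its log2 fold change of 0.72 ± 0.12 there was the highest of the 7 genes and did not reach the 2-fold minimum. In the order of group means no neighbouring pair of the 11 groups overlapped for Sox17, which held for none of the other 6 genes.

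Sox7 had the smallest decrease of the 7 genes in Rsf1Δ, Tip5Δ and BptfΔ. Sox7 (gene ID 20680, chromosome 14, 63943706 to 63950732) was at 19.5 and 19.0 normalized CPM in Rsf1Δ and 14.4 and 16.8 in WstfΔ, against 31.3 and 31.0 in WT cells of batch A. The log2 fold changes of -0.69 ± 0.10 and -0.997 ± 0.11 were not called. The second of these is next to the minimum of 1, and Sox7 was called decreased in WstfΔ without WstfΔ replicate 2 (-1.11) or without WT replicate 2 of batch A (-1.003). In BptfΔ, Sox7 was at 4.73 and 5.37 normalized CPM against 10.2 and 10.9, a log2 fold change of -1.06 ± 0.14 that became -0.97 and was not called without BptfΔ replicate 1. In Tip5Δ it was at 8.45 and 7.49 against 33.1 and 33.2, a log2 fold change of -2.06 ± 0.11. In Acf1Δ its log2 fold change was 0.23 ± 0.10.

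The balance of the HMG-box pair within a library also differed between groups, as a description with no test. The ratio of Sox17 to Sox7 levels per kilobase was 0.768 and 0.87 at its lowest and highest in WT cells of batch C and 0.0163 and 0.0481 in BptfΔ. In Rsf1Δ and WstfΔ the mean ratio was 0.295 and 0.204, against 0.467 in WT cells of batch A. In Acf1Δ it was higher than in WT cells of batch E, at 0.84 against 0.598. In the order of levels per kilobase, Gata4 was above Sox7 in all 5 WT groups, whereas in BptfΔ Sox7 was at 1.53 normalized CPM per kb and Gata4 at 0.709. In the libraries labelled Cecr2Δ the means of the 2 genes were close, at 1.61 for Sox7 and 1.56 for Gata4.

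Sox7 and Gata4 lie 672 kb apart on chromosome 14. The 5 tested genes between them were Fam167a, Tdh, Mtmr9, Xkr6 and Pinx1. None was called increased in any line. Fam167a was called decreased in Rsf1Δ and in Acf1Δ, with log2 values of -2.17 and -1.46, and the other 4 were called in no line. None of the 5 was called in WstfΔ, Tip5Δ, BptfΔ or the libraries labelled Cecr2Δ, where Gata4 was called decreased. Their log2 fold changes ranged from -0.87 to 0.25 in WstfΔ and from -0.33 to 0.26 in Tip5Δ. The ranges were -0.33 to 0.66 in BptfΔ and -0.45 to 0.45 in the libraries labelled Cecr2Δ.

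**Figure D3:**
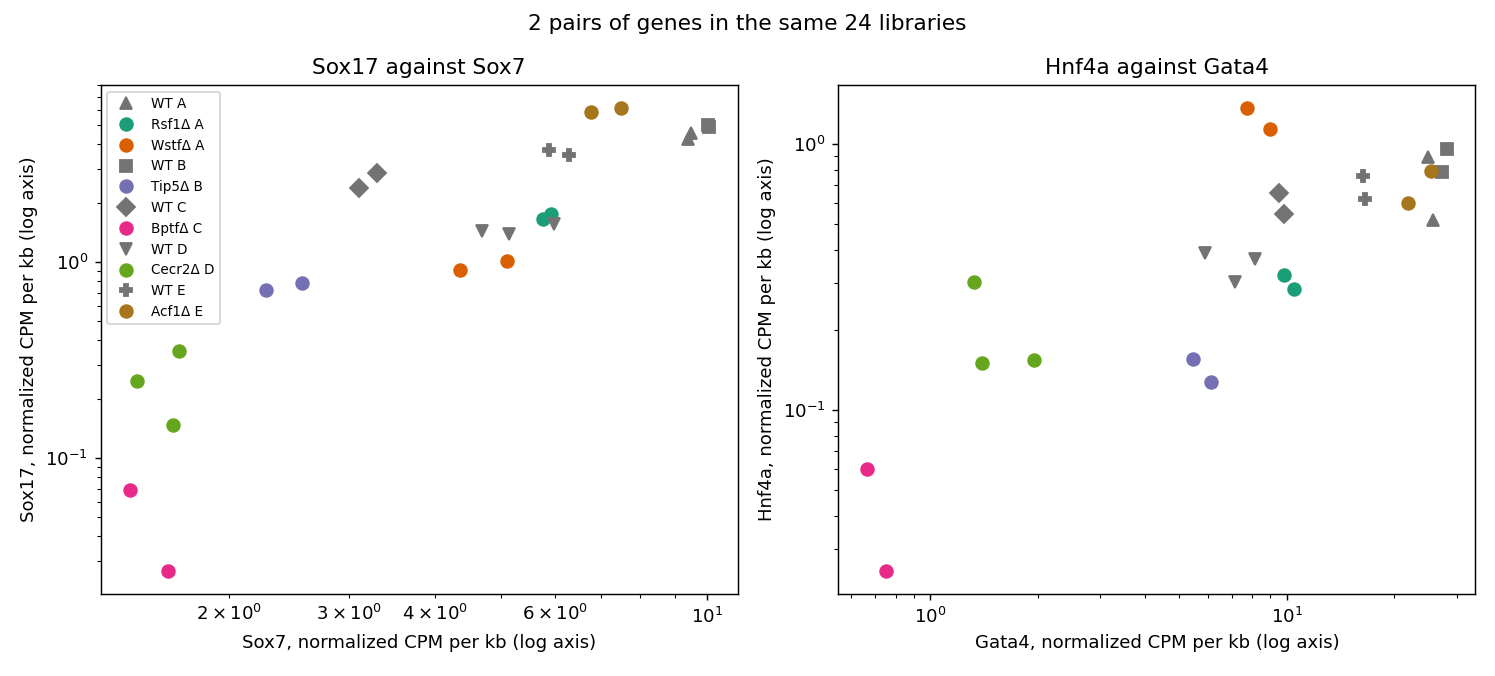
Levels of Sox17 against Sox7 and of Hnf4a against Gata4 in the same 24 libraries, in normalized CPM per kb on log axes, with gray symbols for the WT libraries of each batch and colored points for the deletion lines. BptfΔ lies low in Sox17 for its Sox7 level, and WstfΔ lies above all other libraries in Hnf4a.

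Foxa2 and Hnf4a had fewer counts, and Hnf4a alone of the 7 genes was not lower in WstfΔ. Foxa2 (gene ID 15376, chromosome 2, 148042877 to 148046969) was lower in the same 5 lines as Gata4, by log2 values of -1.39 ± 0.19 in Rsf1Δ, -2.15 ± 0.24 in WstfΔ, -2.45 ± 0.23 in Tip5Δ, -3.16 ± 0.34 in BptfΔ and -1.81 ± 0.20 in the libraries labelled Cecr2Δ. The BptfΔ value rests on 2 and 15 counts, and was -5.18 without replicate 2 and -2.37 without replicate 1. In Acf1Δ, Foxa2 was at 8.14 and 7.55 normalized CPM against 7.59 and 7.22, which overlapped.

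Hnf4a (gene ID 15378, chromosome 2, 163506811 to 163572907) was at 6.57 and 5.49 normalized CPM in WstfΔ, above all 11 WT libraries, which ranged from 1.46 to 4.60. The WT libraries of batch A were at 4.31 and 2.50 and so differed more in proportion than those of the other 6 genes. The log2 fold change of Hnf4a in WstfΔ was 0.82 ± 0.25 and was not called. Without WT replicate 1 of batch A it was 1.27 and was called increased. In Rsf1Δ, Hnf4a was at 1.37 and 1.55 normalized CPM, a log2 fold change of -1.22 ± 0.29. This call was lost without any of Rsf1Δ replicate 1 (-1.14), Rsf1Δ replicate 2 (-1.31) and WT replicate 1 of batch A (-0.77). Hnf4a was lower in Tip5Δ by a log2 value of -2.61 ± 0.32, and in BptfΔ by -3.77 ± 0.50 on 2 and 5 counts. The BptfΔ value was -4.53 without BptfΔ replicate 2 and -3.29 without replicate 1. In the libraries labelled Cecr2Δ it was at 0.747, 1.46 and 0.725 normalized CPM against 1.88, 1.79 and 1.46, a log2 fold change of -0.80 ± 0.25 that was not called. Without Cecr2Δ replicate 2 this value was -1.22 and was called decreased. Hnf4aos, which overlaps Hnf4a, had at most 2 counts in any library. The ratio of Hnf4a to Gata4 levels per kilobase was 0.151 in WstfΔ against 0.028 in WT cells of batch A. It was 0.138 in the libraries labelled Cecr2Δ, with a range of 0.079 to 0.228, against 0.0513 in WT cells of batch D.

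Promoter sequence was at hand for Foxa2, Hnf4a and Pdgfra, from RefSeq on GRCm38.p6, the assembly that mm10 names. The stretches below are shown because Foxa2 and Pdgfra were called decreased in the same 5 lines as Gata4 and Gata6, and Hnf4a in 3 of them but not in WstfΔ or the libraries labelled Cecr2Δ. Capitals mark the words AGATAA and TGATAA, letters that GATA factors are known to bind, and ACAAAG and ACAATG, letters that SOX factors are known to bind, each searched on both strands in the 250 bases before a start; the GATA and SOX words do not overlap each other. The Foxa2 stretch is the only one of 3 before annotated Foxa2 starts with a match and lies within the span of the gene, outside exons (chr2:148045465-148045714, minus strand). The Hnf4a stretch ends at the base before the span of the gene (chr2:163506607-163506810, plus strand), and the RefSeq start it was taken for lies inside that span. Of the 250 bases before that start 49 lie in GENCODE exons, and most of these are not shown. The stretch was widened to hold the whole word AGATAA, whose last bases lie in such an exon. The Pdgfra stretch lies before 1 annotated start and, like that of Foxa2, within the span of the gene and outside exons (chr5:75152001-75152250, plus strand).
Foxa2: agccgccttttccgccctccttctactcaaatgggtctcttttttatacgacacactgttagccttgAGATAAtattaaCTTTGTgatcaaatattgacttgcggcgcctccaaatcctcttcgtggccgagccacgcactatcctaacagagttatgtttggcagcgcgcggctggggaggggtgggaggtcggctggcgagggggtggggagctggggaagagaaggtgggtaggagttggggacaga
Hnf4a: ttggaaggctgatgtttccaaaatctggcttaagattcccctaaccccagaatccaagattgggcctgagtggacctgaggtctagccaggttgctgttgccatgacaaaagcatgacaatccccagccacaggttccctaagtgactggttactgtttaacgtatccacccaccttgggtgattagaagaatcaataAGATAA
Pdgfra: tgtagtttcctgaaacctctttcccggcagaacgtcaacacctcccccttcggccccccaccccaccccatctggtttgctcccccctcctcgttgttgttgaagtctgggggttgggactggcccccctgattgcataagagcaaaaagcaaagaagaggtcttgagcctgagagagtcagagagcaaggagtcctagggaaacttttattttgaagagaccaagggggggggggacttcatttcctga
The Foxa2 stretch holds AGATAA 183 bases and CTTTGT, the reverse complement of ACAAAG, 171 bases before the start. The Hnf4a stretch holds AGATAA directly before the span of the gene, 52 bases before the RefSeq start inside it, and no word was found before the other RefSeq start. The Pdgfra stretch holds none of these words, and sequence before the first base of the gene was not searched. Of 32817 RefSeq promoters, 16.6% hold a GATA word and 25.2% a SOX word in the same window, so a match is common and describes letters only.

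Pdgfra (gene ID 18595, chromosome 5, 75151322 to 75198206), the receptor among the 7 genes, had the largest decrease of them in Rsf1Δ. It was at 16.2 and 16.3 normalized CPM there and at 11.6 and 10.1 in WstfΔ, against 43.8 and 49.4 in WT cells of batch A. The log2 fold changes were -1.52 ± 0.11 and -2.10 ± 0.12. In Tip5Δ, Pdgfra was at 10.7 and 8.28 normalized CPM against 49.6 and 44.9, in BptfΔ at 3.71 and 3.76 against 27.7 and 30.8, and in the libraries labelled Cecr2Δ at 3.24, 3.56 and 3.15 against 17.3, 15.9 and 15.1. No group overlapped with its WT libraries. The 2 libraries of BptfΔ were closer to each other for Pdgfra than for Gata6, Sox17, Foxa2 or Hnf4a. In Acf1Δ, Pdgfra was at 45.1 and 36.6 against 28.1 and 29.0, a log2 fold change of 0.51 ± 0.10.

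The ligands and relatives of the receptor were counted separately. In a list of 7 PDGF ligands and related receptors, 1 was called decreased in each of Rsf1Δ, WstfΔ and Tip5Δ, and 0 in the other 3 lines. In Rsf1Δ this was the ligand gene Pdgfd with a log2 value of -1.51 (adjusted p = 0.00528) on 11 and 17 counts, and the call was lost without any 1 of the 4 Rsf1Δ and WT libraries of batch A. In WstfΔ Pdgfd had 1 and 2 counts. In BptfΔ 3 were called increased: Kit, the neighbouring receptor gene for stem cell factor, with a log2 fold change of 1.74 ± 0.07 (adjusted p = 2.39e-17), and the ligand genes Pdgfb (1.23 ± 0.19, adjusted p = 5.07e-06) and Pdgfa (1.04 ± 0.07, adjusted p = 2.58e-12). Kit was called decreased in Tip5Δ at -1.04 ± 0.07 (adjusted p = 7.14e-12), which became -0.97 and was not called without WT replicate 1 of batch B.

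The levels were also set against all 11 WT libraries. Since WT levels differ between batches, with sums over the 7 genes of 84.6 normalized CPM in batch D and 236 in batch A, the counts that follow depend on the batch of a line as well and do not compare the lines. Every library of the line lay below every WT library for 7 genes in BptfΔ, 6 in Tip5Δ, 6 in Cecr2Δ as labelled, 4 in WstfΔ and 0 in Rsf1Δ and Acf1Δ. In Rsf1Δ both libraries were inside the WT range for Gata4, Sox17, Sox7 and Pdgfra, which are 4 of the 7 genes. Both Acf1Δ libraries were inside it for 6 of the 7 genes, all but Sox17, which was above it. How many of all genes lie below or inside the WT range in this way was not counted, so nothing is read from these numbers. Pdgfra in Rsf1Δ, at 16.2 and 16.3 normalized CPM, overlapped the WT cells of batch D, at 15.1 to 17.3.

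Other genes of primitive, parietal and visceral endoderm were examined in a list of 29, of which 26 were tested. Called decreased were 21 in Rsf1Δ, 13 in WstfΔ, 20 in Tip5Δ, 17 in BptfΔ, 15 in Cecr2Δ as labelled and 0 in Acf1Δ, and none was called increased. The list medians were -1.33, -1.15, -2.10, -2.64, -1.06 and -0.01 on the log2 scale. The list was drawn up with earlier results of these libraries known and is not independent evidence of its direction.

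Of 8 basement membrane and matrix genes in the list, Lama1, Lamb1, Col4a1 and Col4a2 were called decreased in the same 5 lines as Gata4. Sparc was called decreased in 4 lines and Lamc1 in Tip5Δ, while Nid1 and Hspg2 were called in no line. Nid1, a laminin linker, had log2 fold changes of 0.69 in BptfΔ (adjusted p = 4.93e-07) and 0.58 in the libraries labelled Cecr2Δ (adjusted p = 7.71e-07), under the 2-fold minimum. Col4a1, a collagen IV chain, had log2 fold changes of -1.98 in Rsf1Δ (adjusted p = 1.05e-14), -2.48 in WstfΔ (adjusted p = 8.27e-17), -2.69 in Tip5Δ (adjusted p = 3.88e-17), -2.88 in BptfΔ (adjusted p = 4.78e-18) and -2.86 in the libraries labelled Cecr2Δ (adjusted p = 1.90e-19). In Acf1Δ it was at -0.00216 (adjusted p = 0.989). The endocytic genes of visceral endoderm, Cubn, Amn, Lrp2 and Dab2, were all called decreased in Rsf1Δ and in BptfΔ, and none was called in WstfΔ or Acf1Δ. Tip5Δ had Cubn, Amn and Dab2 called decreased but not Lrp2, and the libraries labelled Cecr2Δ only Amn. Whether the lines differ was not tested. Cubn, the receptor cubilin, had a log2 fold change of -6.14 ± 0.30 in BptfΔ (adjusted p = 2.09e-15) and -2.20 ± 0.19 in Tip5Δ (adjusted p = 1.33e-09), but -0.23 in WstfΔ (adjusted p = 0.303). Its partner Amn was at 0.62 in WstfΔ (adjusted p = 0.0376) and at -3.58 in BptfΔ (adjusted p = 7.42e-08). Lrp2, the receptor megalin, and Dab2, its adaptor, were below WT cells in WstfΔ by log2 values of -0.99 (adjusted p = 4.22e-05) and -0.73 (adjusted p = 4.59e-08), which did not reach the 2-fold minimum. Thbd, thrombomodulin, had the largest decrease of the list in WstfΔ at -4.47 ± 0.31 (adjusted p = 3.61e-12). Cubn in WstfΔ, Amn, Lrp2, Dab2 and the matrix genes were named after their values were seen. Ttr, Afp and Apoa1, carriers of later visceral endoderm, had at most 9 counts in any library and were not tested.

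**Figure D4:**
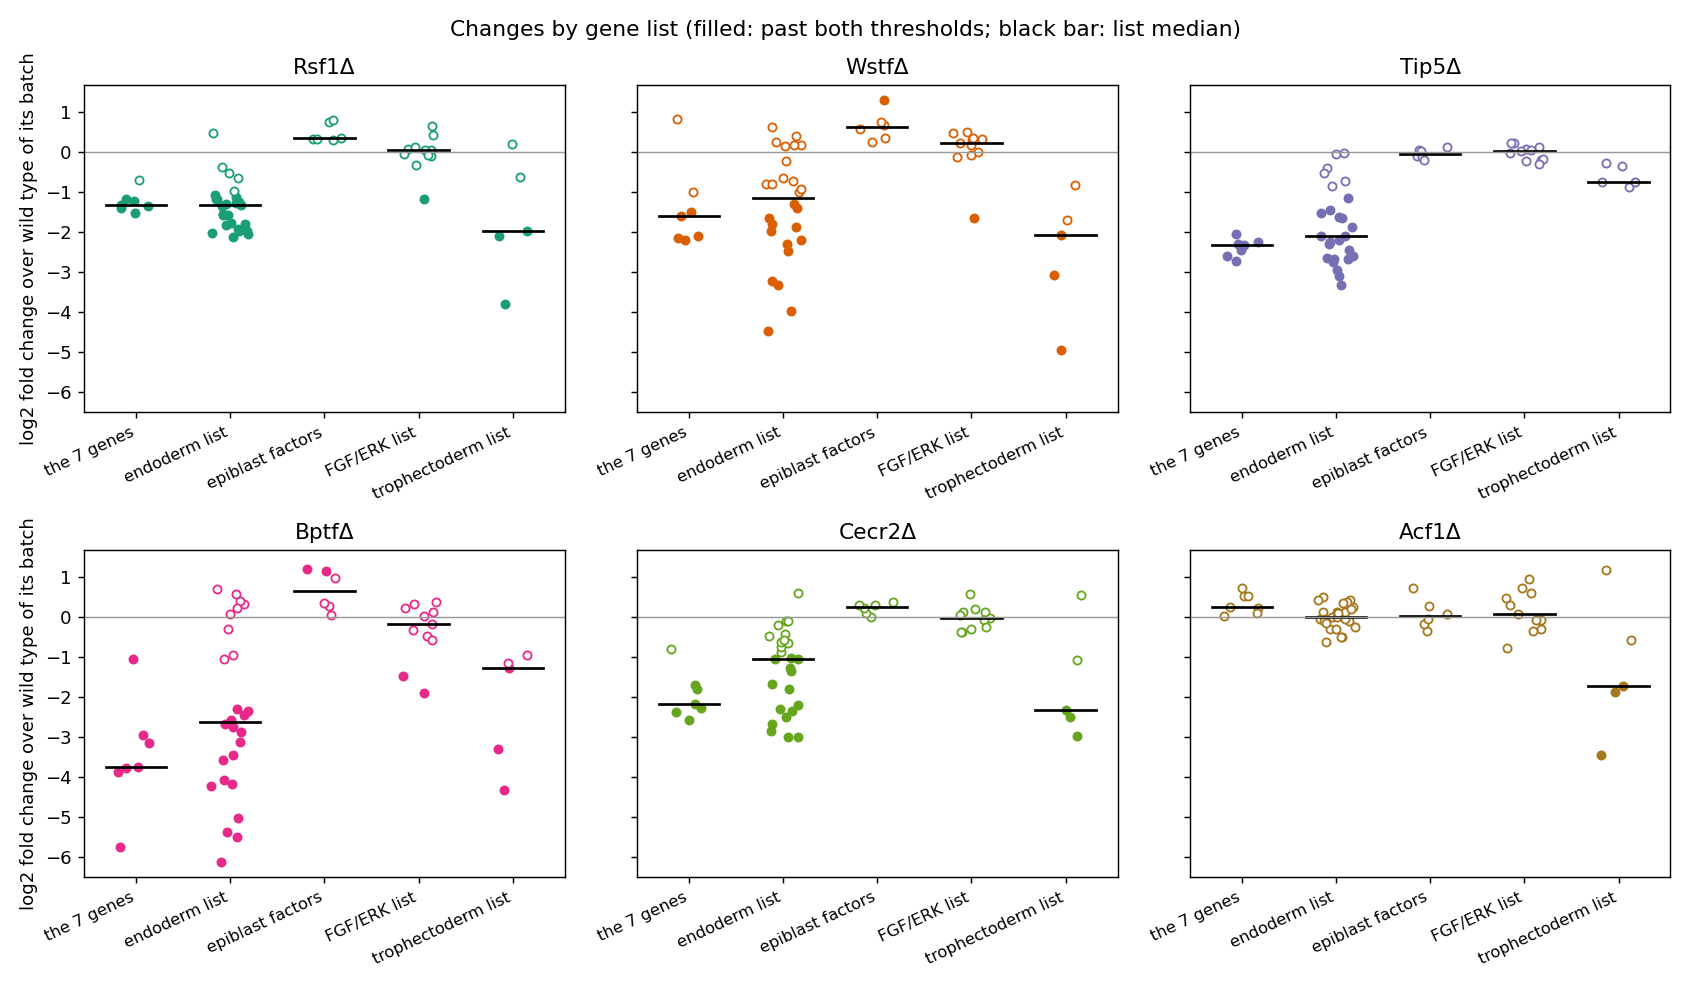
Log2 fold change of each tested gene of 5 lists in each deletion line over the WT libraries of its batch, with filled points for genes past both thresholds, open points for the others and a black bar at the list median. The medians of the 7 genes and of the endoderm list are below 0 in 5 lines and at 0.25 and -0.01 in Acf1Δ, where 3 trophectoderm genes are filled.

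Over the 24 libraries, the genes whose log2 level followed the mean of the 7 most closely, among 14503 compared, were Pth1r (Pearson's r = 0.985), a parathyroid hormone receptor of parietal endoderm, Adora1 (0.983), Srgn (0.981), P4ha2 (0.978) and Pla2g12b (0.977). For Pdgfra alone they were P4ha2 (0.986), a collagen prolyl hydroxylase, Col4a1 (0.984) and Hs3st1 (0.984). Among the 7, Gata6 followed the mean of the others most closely (r = 0.986) and Hnf4a least (r = 0.813). In the 11 WT libraries alone, Sox7 was least close at 0.709 and Gata6 closest at 0.989. These libraries share batches and clones, so the values describe them and are not tests.

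None of the epiblast factors was called decreased. Of Pou5f1, Sox2, Nanog, Zfp42, Esrrb and Klf4, the number called increased was 1 in WstfΔ, 2 in BptfΔ and 0 in the other 4 lines. Klf4 was called increased in WstfΔ at 1.30 ± 0.09 (adjusted p = 3.10e-12) and in BptfΔ at 1.14 ± 0.09 (adjusted p = 3.50e-11), and Esrrb in BptfΔ at 1.19 ± 0.06 (adjusted p = 8.24e-15). Nanog, a factor that opposes GATA6 in the embryo, had log2 fold changes of 0.75 in Rsf1Δ (adjusted p = 4.23e-12), 0.68 in WstfΔ (adjusted p = 1.88e-11), 0.96 in BptfΔ (adjusted p = 8.55e-15) and 0.37 in the libraries labelled Cecr2Δ (adjusted p = 5.61e-08), all under the 2-fold minimum. In Tip5Δ, in which all 7 genes were called decreased, Nanog was at 0.01 (adjusted p = 0.918), and in Acf1Δ at -0.18 (adjusted p = 0.00473). The summed level of the 6 factors did not overlap with WT cells of the batch in Acf1Δ, at means of 3836 against 3286 normalized CPM, and was higher in the other lines too except Tip5Δ, where it overlapped.

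FGF signals through ERK are known to drive primitive endoderm formation. Of 11 genes of this pathway and its feedback, 1 was called decreased in Rsf1Δ and in WstfΔ, 2 in BptfΔ and 0 in the other 3 lines, and none was called increased. Fgfr2, a receptor used by primitive endoderm, was at -1.18 ± 0.09 in Rsf1Δ (adjusted p = 2.38e-11), -1.66 ± 0.10 in WstfΔ (adjusted p = 1.08e-13) and -1.92 ± 0.10 in BptfΔ (adjusted p = 1.02e-14). Spry2, a feedback inhibitor, was at -1.48 ± 0.06 in BptfΔ (adjusted p = 9.86e-17). In Tip5Δ, Fgfr2 was at -0.21 (adjusted p = 0.113).

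Paralogues of the transcription factors among the 7 genes and markers of other cell types were also counted. Of 8 paralogues 6 were tested, and Gata3 was called decreased in Rsf1Δ, WstfΔ, Cecr2Δ as labelled, and Acf1Δ, with log2 fold changes of -2.10 (adjusted p = 2.23e-05), -3.07 (adjusted p = 4.12e-06), -2.99 (adjusted p = 1.54e-08) and -1.89 (adjusted p = 5.97e-05). Sox18 was called decreased in Rsf1Δ and BptfΔ and Gata1 in the libraries labelled Cecr2Δ, calls that were each lost with 1 library left out. Gata2 was called increased in WstfΔ at 1.55 ± 0.13 (adjusted p = 4.13e-10). Of 6 trophectoderm genes, which include Gata3, 5 were tested, and 3 were called decreased in each line except Tip5Δ, where 0 were. Their summed level was 16.8 to 18.2 normalized CPM in Acf1Δ against 56.6 to 58.8 in WT cells of batch E, and 50.5 to 50.6 in Tip5Δ against 62.9 to 66.3 in batch B. In the libraries labelled Cecr2Δ it was higher than in WT cells of batch D, with means of 52.5 against 45.0 and no overlap, and Tfap2c, not called, had a log2 value of 0.54 there (adjusted p = 2.50e-07). In Rsf1Δ, WstfΔ and BptfΔ the sum was below that of WT cells of the batch. In Acf1Δ, where none of the 7 was called, these were Krt7, Gata3 and Tfap2c, while Cdx2 had a log2 value of 1.18 (adjusted p = 0.0267) and was not called. In Tip5Δ the list median was -0.75 on the log2 scale without a call, and the difference between the 2 lines was not tested.

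Of 12 fibroblast and mesoderm genes, cells that also use Pdgfra, 8 were tested and between 0 and 4 were called decreased in a line, with 3 called increased in WstfΔ and none elsewhere. The calls of Col1a2 in Rsf1Δ, WstfΔ and Acf1Δ and of Col3a1 in Rsf1Δ and Tip5Δ, on 17 counts or fewer per library of the line, were lost with 1 library left out. The summed level of the 12 genes ranged from 44.8 to 123 normalized CPM over all libraries. In WT cells of batch A it was 50.7 to 53.7, below the 92.4 to 95.7 of WstfΔ and the 59.6 to 61.8 of Rsf1Δ. It was also higher in BptfΔ, at 61.9 to 65.6 against 52.1 to 54.6 in WT cells of batch C. For Acf1Δ it was 109 to 123 against 85.0 to 88.3 in batch E. Tip5Δ was lower, at 44.8 to 56.2 against 64.8 to 65.2 in batch B, and the libraries labelled Cecr2Δ overlapped with WT cells. Lum had at most 1 count in any library and Postn at most 11. Of 9 genes of primitive streak and definitive endoderm, which also use Gata4, Gata6, Sox17 and Foxa2, 7 were tested. Of these, 1 was called decreased in BptfΔ and 1 in Acf1Δ, and 1 was called increased in WstfΔ and 1 in BptfΔ. The decrease in BptfΔ was of T, brachyury, which had 1 count in each BptfΔ library (adjusted p = 3.08e-06). Eomes was higher by 1.05 on the log2 scale in WstfΔ (adjusted p = 5.84e-05), and was not called without WstfΔ replicate 1 (0.98) or WT replicate 1 of batch A (0.83). Cxcr4 was higher by 1.02 on that scale in BptfΔ (adjusted p = 0.00699), a call lost without any 1 of the 4 libraries of batch C. Their summed level was 18.0 to 20.7 normalized CPM in WstfΔ against 12.3 to 12.8 in WT cells of batch A, and 8.52 to 16.2 in the other libraries. Cer1 had at most 2 counts in any library. The part of these other cell types in the levels of the 7 genes was not tested.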

How the data were processed

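The authors used QuasR for spliced alignment to mm10, counted reads by UCSC knownGene gene and deposited raw counts without normalization, with a gene width in bases. The submitters' processing notes also name bcl2fastq 2.17 and HISAT2. How multiply aligned reads or strands were counted is not given in the sources used here. Gene IDs were joined to RefSeq for GRCm38.p6, which held 24570 of 24594.

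From the counts, edgeR 4.0.16 in R 4.3.3 filtered genes with filterByExpr by genotype, scaled library sizes with TMM and fitted the legacy quasi-likelihood model with terms for batch and genotype on the 24 libraries together, which sets each line against the WT cells of its batch, with Benjamini-Hochberg adjustment over 15682 genes. Normalized CPM are counts scaled to a common library size of 1 M (mega), and correlations used log2 CPM with a prior count of 2. The standard error was taken as the size of the log2 fold change over the square root of F. The steps were tested on simulated data. The libraries of a group are called independent replicates by the study, but those of a deletion line come from 1 clone. The p-values rest on the spread between libraries of the same group and not on the spread between clones. That spread was estimated over all 24 libraries in 1 fit. No 2 libraries of a group differed by as little as sampling noise: over 15 pairs the variance was 1.38 to 20.4 times that of sampling.

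The 7 genes and all gene lists were chosen with earlier results of these data known. Of each list and line, at most 3 called genes were named by a rule: the largest change, with a mean of at least 10 counts and no overlap with WT cells of the batch; targeted genes, genes at the same locus, Pou5f1, Sox2, Nanog and the closest genes by correlation were named as well, and other genes after their values were seen. Exons came from GENCODE on GRCm38. Alternatives tried were DESeq2 1.42.0, the newer quasi-likelihood fit of edgeR, scaling by library size only, no filter on low counts, fits of a line with the WT libraries of its batch alone, no batch in the model, a replicate block, no 2-fold minimum and leaving out each library.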

Additional observations from a re-analysis of the deposited data

How the results depend on the processing

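The number of the 7 genes called in each line was the same with DESeq2, the newer quasi-likelihood fit, library size only, no filter on low counts, fits of a line with the WT libraries of its batch alone and the replicate block. The main fit gave 927 DEGs in Rsf1Δ, 1638 in WstfΔ, 426 in Tip5Δ, 2171 in BptfΔ, 488 in Cecr2Δ as labelled and 698 in Acf1Δ. Without batch in the model, 0 of the 7 genes were called in Rsf1Δ, 2 in Tip5Δ and 0 in WstfΔ. In this fit 0 endoderm list genes were called in Rsf1Δ, 0 in Tip5Δ and 4 in WstfΔ, and there were 134 DEGs in Rsf1Δ, 159 in Tip5Δ, 500 in WstfΔ and 153 in Acf1Δ. Calls rose in Cecr2Δ as labelled, to 7 of the 7 genes, 21 endoderm list genes and 616 DEGs, and in BptfΔ to 18 endoderm list genes and 2368 DEGs, with 7 of the 7 as before. This fit sets each line against WT cells of all batches, which differ in the level of the 7 genes.

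Without the 2-fold minimum there were 3225 DEGs in Rsf1Δ, 5444 in WstfΔ, 1423 in Tip5Δ, 6523 in BptfΔ, 2878 in Cecr2Δ as labelled and 4985 in Acf1Δ. Of the 7 genes, 3 were then called in Acf1Δ, all increased, and 7 in WstfΔ, of which Hnf4a was increased. Of the endoderm list 4 were called in Acf1Δ and 20 in WstfΔ, with 1 increased in each.

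With the replicate block 875 genes were called in Rsf1Δ, 1571 in WstfΔ, 385 in Tip5Δ, 2093 in BptfΔ, 451 in Cecr2Δ as labelled and 641 in Acf1Δ. Same-numbered libraries did not deviate together (correlations of -0.07 to 0.05 over 13 pairs), so the numbers do not pair the samples. Of 476 values of the 42 log2 fold changes under all alternatives, 2 changed sign, both of Hnf4a in Acf1Δ. Depth limits Sox17, Foxa2 and Hnf4a in BptfΔ, which had 2 to 15 counts per library.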
